A study of Mus musculus with 24 samples.

Results

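Potassium channel genes were followed in nuclear RNA from an astrocyte sort of mouse spinal cord, after early-life hindpaw incision and through normal development. They were taken as every gene whose symbol began with Kcn, went on with letters and ended in a number, leaving out Kcnj10 and the non-coding Kcnq1ot1. This gave 74 genes among the 15709 genes of the deposited normalized count tables. By role they comprised 25 voltage-gated pore subunits, 8 modifier pore subunits that do not form channels alone, 13 inward rectifiers, 9 K2P leak channels, 7 calcium- or sodium-activated channels and 12 accessory subunits.

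The mice carried Aldh1l1-creERT2(+/-), an inducible Cre driven by an astrocyte gene, together with R26-LSL-Sun1.GFP(+/-), which tags the nuclear envelope of cells in which Cre has acted. This genotype was shared by every mouse, controls included. At postnatal day 3 pups received a unilateral hindpaw incision, while naive pups received isoflurane alone. GFP-positive nuclei from the lower lumbar dorsal horn on the operated side were sorted at P4, P10 or P24, which is 1, 7 or 21 days after surgery. There were 24 libraries, 4 for incision and 4 for naive mice at each age, with 1 library per mouse. Groups followed the characteristics fields, which matched the deposited sample sheet for every library, while the titles gave another group for 2 of them, P10 naive replicate 4 and P10 incision replicate 4. The titles and the sheet gave different sexes for 4 libraries, and the sheet's sex was used.

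Potassium channels set the resting potential and end action potentials in neurons, and in astrocytes they carry the potassium that active neurons release. Inward rectifiers and K2P leak channels are open near the resting potential and give mature astrocytes their low membrane resistance. Voltage-gated channels open on depolarization, calcium-activated channels couple potassium current to calcium signals, and accessory subunits tune where and how the pores work. Many of these genes are also expressed in neurons and oligodendrocytes.

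The deposited tables held 67 of the genes at P4, 61 at P10, 72 at P24 and 69 in the table of naive mice across ages. Of the genes, 58 were present in all 4 tables. The age table lacked Kcna7, Kcne1, Kcnh3, Kcnk5 and Kcnmb2. The authors' filter kept a gene if it was expressed in at least 1 group, so a gene that is high in only 1 group could enter through that group, and the genes present are not all potassium channel genes of the genome. Column sums of normalized counts ran from 3880251 to 6512585, and sequencing depth is not recorded in these values. The 9 astrocyte markers were present in every table and none was at 0 in any library. Markers of other cell types were present too, and their summed values are given with the results.

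The promoters of the genes on which the results turn are shown first, from RefSeq on GRCm38.p6, 5′ to 3′ on the gene's strand, each from 250 bases before to 50 bases after the start. Kcnk1 is shown because it reached the highest level and rose at each age, Kcnmb4 because it fell at each age, and Kcnk2 because it had the lowest p-value after incision. The Kcnk1 promoter lies at chr8:125994852-125995151 on the plus strand, the Kcnmb4 promoter at chr10:116473474-116473773 on the minus strand, and the most upstream of 4 Kcnk2 promoters at chr1:189402224-189402523 on the minus strand. Capitals mark matches, on either strand, to the GC box GGGCGG, the NFI motif TTGGC or the SOX core ACAAT.
Kcnk1 promoter: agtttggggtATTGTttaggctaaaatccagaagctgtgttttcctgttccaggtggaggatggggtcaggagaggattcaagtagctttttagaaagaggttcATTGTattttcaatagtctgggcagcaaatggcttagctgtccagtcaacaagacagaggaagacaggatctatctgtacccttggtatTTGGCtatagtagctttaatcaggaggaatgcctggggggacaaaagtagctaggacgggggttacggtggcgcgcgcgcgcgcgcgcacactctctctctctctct
Kcnmb4 promoter: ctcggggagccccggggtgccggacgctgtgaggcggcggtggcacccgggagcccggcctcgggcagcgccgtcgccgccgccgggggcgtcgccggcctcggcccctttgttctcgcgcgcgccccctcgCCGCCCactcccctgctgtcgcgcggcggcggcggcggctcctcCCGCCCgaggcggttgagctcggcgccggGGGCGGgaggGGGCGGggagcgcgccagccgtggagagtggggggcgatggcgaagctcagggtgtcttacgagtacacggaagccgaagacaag
Kcnk2 promoter: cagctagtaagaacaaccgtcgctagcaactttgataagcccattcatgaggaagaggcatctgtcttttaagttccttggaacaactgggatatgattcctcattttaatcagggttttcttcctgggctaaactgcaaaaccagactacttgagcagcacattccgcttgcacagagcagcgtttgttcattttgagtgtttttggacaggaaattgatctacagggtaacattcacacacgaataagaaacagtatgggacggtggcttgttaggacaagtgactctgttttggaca

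The Kcnk1 promoter held 49.0% G and C, with 1 NFI motif and 2 SOX cores. The Kcnmb4 promoter held 79.0% G and C and 4 GC boxes. GENCODE places the Kcnmb4 gene at chr10:116417861-116473878 on the minus strand. The window shown, set by the RefSeq start, thus lies inside that gene, downstream of its GENCODE start. The Kcnk2 promoter shown held 43.0% G and C and none of the motifs searched. The Kcnk2 promoters not shown differed from it. The one starting at chr1:189344143 held 54.7% G and C and none of the motifs. The one at chr1:189343658 held 74.7%, with 1 GC box and 1 NFI motif, and the one at chr1:189343304 held 68.7%, with 2 NFI motifs. Among 32851 mouse promoters of this length 35.7% held a GC box, 46.7% an NFI motif and 31.0% a SOX core, on either strand. Among 77 promoters of potassium channel genes the shares were 45.5%, 40.3% and 20.8%. The cyclic AMP response element TGACGTCA was in 1.79% of all promoters and in 0% of these, and the TATA box TATAAA was in 13.6% and 6.49%. The median G and C content was 58.0% for potassium channel promoters and 52.7% for all.

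Development in naive mice changed a set of these genes strongly, in both directions. Between P24 and P4, 13 of 69 genes rose and 3 fell. Of all 14985 genes tested, 10.8% rose and 7.33% fell in that comparison. The largest increases were in Kcna1, a Kv1 delayed rectifier pore, and Kcnk1, the TWIK-1 leak channel, and the largest decrease was in Kcnmb4, the neuronal beta subunit of the BK channel. Calls were made with limma on log2(normalized count + 1) with sex as a covariate, at a Benjamini-Hochberg adjusted p under 0.05 over all genes, and fold changes are on that scale. Since the titles do not tie mice to litters or days, p-values measure the spread between these libraries.

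At both steps between ages more genes rose than fell, while the median change differed in sign. Between P10 and P4, 6 genes rose and 3 fell, against backgrounds of 7.55% and 5.58% of all genes. Between P24 and P10, 11 rose and 4 fell, against 7.59% and 5.51%. The median log2 change over the 69 genes was -0.27 between P10 and P4, beside -0.02 for all genes, and 0.36 between P24 and P10, beside 0.03 for all genes. Between P24 and P4 it was 0.05, beside 0.01 for all genes. The medians of both steps rest on the same P10 naive libraries. Replicate 1 of these had a mean log2 value over the genes of 5.39, beside 5.92 to 6.01 in the others. In a test across the 3 ages together 22 of 69 genes differed, against 24.8% of all genes. For the other 47 genes no pair of ages was called either.

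**Figure D1:**
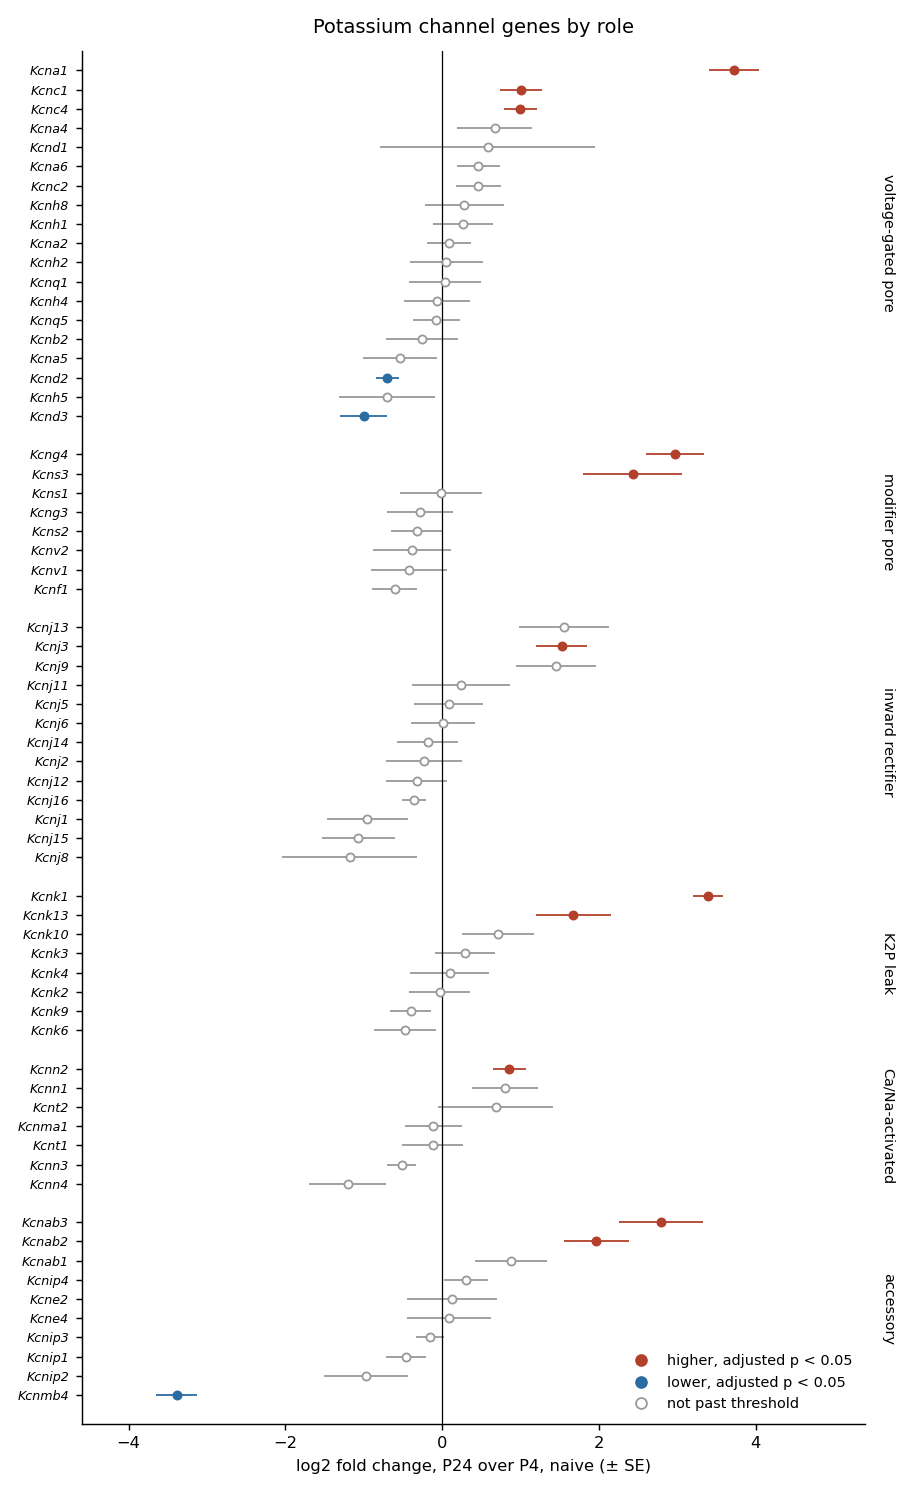
Log2 fold change of normalized counts, P24 over P4, in naive mice for 65 of the 69 potassium channel genes of the age table, grouped by role, with standard errors from limma (4 libraries per age). Filled red points are 11 of the genes that rose and filled blue points the 3 that fell at an adjusted p under 0.05, and open grey points did not pass.

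Of 8 K2P leak channels tested, which pass potassium at rest, 2 rose between P24 and P4 and 0 fell. Kcnk1 had 438, 272, 349 and 424 normalized counts in the P4 naive libraries, 1653, 1525, 908 and 942 at P10, and 4403, 3345, 4481 and 3835 at P24. Every library of a later age lay above every library of an earlier one. The log2 change was 1.73 ± 0.19 (SE) between P10 and P4 (adjusted p = 1.51e-06), 1.66 ± 0.19 between P24 and P10 (adjusted p = 2.93e-06) and 3.39 ± 0.19 between P24 and P4 (adjusted p = 9.92e-12). The gene lies at chr8:125995170-126030685 on the plus strand (GRCm38), and 8.0% of its exon length is shared with the antisense gene Gm45875. Kcnk13, the THIK-1 channel best known in microglia, had 70.5, 89.3, 98.1 and 109 counts at P24, against 21.8, 20.3, 30.1 and 46.0 at P4. Its P10 libraries held 11, 53.9, 18.5 and 8.75 counts, so that P10 overlapped P4 and lay wholly below P24. It rose by 1.67 ± 0.48 between P24 and P4 (adjusted p = 0.0157), a call lost without P4 naive replicate 1 (adjusted p = 0.0675), P4 naive replicate 2 (0.0702) or P24 naive replicate 4 (0.0912). The other 6 leak channel genes tested did not pass in any pair of ages. Among them Kcnk10, the TREK-2 channel, averaged 44.5 ± 6.90, 102 ± 86.4 and 67.1 ± 17.5 counts at P4, P10 and P24 (SD, n = 4 each), the P10 value with the widest spread.

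Of 23 voltage-gated pores tested, 5 rose between P24 and P4 and 2 fell. Kcna1 had 52.4, 53.1, 57.3 and 82.5 normalized counts at P4, 30.6, 59.3, 44.6 and 134 at P10, and 578, 901, 804 and 747 at P24. The P4 and P10 libraries overlapped, and every P24 library stood above all of them. The log2 change was -0.07 ± 0.31 between P10 and P4 (adjusted p = 0.918) and 3.79 ± 0.32 between P24 and P10 (adjusted p = 4.00e-08). Kcna1 lies at chr6:126640397-126646384 on the minus strand (GRCm38). Kcnc1, a fast Kv3 channel, also rose late. Kcnc1 averaged 106 ± 12.4, 123 ± 27.5 and 222 ± 70.7 counts at P4, P10 and P24 (SD, n = 4 each). Its rise of 1.00 ± 0.27 between P24 and P4 (adjusted p = 0.0095) was lost without P24 naive replicate 2 (adjusted p = 0.0541). Kcnc2, another fast Kv3 channel, was lowest at P10. It rose between P24 and P10 by 0.97 ± 0.29 (adjusted p = 0.0264), with 118, 137, 115 and 149 counts at P24, against 48.7, 65.7, 65.5 and 108 at P10. At P4 it averaged 101 ± 25.8 counts (SD, n = 4), overlapping P24, and P24 against P4 was not called.

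Another voltage-gated pore moved earlier. Kcnc4, an A-type member of the Kv3 group, was highest at P10. Its libraries held 107, 172, 159 and 183 counts at P4, 389, 331, 658 and 461 at P10, and 270, 327, 245 and 306 at P24. The 3 ages did not overlap, and the rise between P10 and P4 was 1.54 ± 0.21 (adjusted p = 1.83e-05).

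Kcnd2 and Kcnd3, which are Kv4 pores and carry A-type current, fell. The other Kv4 pore, Kcnd1, was not called in any pair of ages and averaged 44.1 ± 13.2, 66.2 ± 58.5 and 58.0 ± 12.4 counts at P4, P10 and P24 (SD, n = 4 each). Kcnd2 had 457, 459, 433 and 423 counts at P24, against 704, 778, 770 and 688 at P10 and 840, 734, 650 and 600 at P4. Every P24 library lay below every younger one, and the change between P24 and P4 was -0.70 ± 0.15 (adjusted p = 0.00152). Kcnd3 had 113, 69.4, 58.4 and 103 counts at P24, against 161, 197, 167 and 153 at P4, with no overlap. It fell by 1.00 ± 0.30 on the log2 scale (adjusted p = 0.0189), a call lost without P4 naive replicate 2 (adjusted p = 0.0901), P24 naive replicate 2 (0.0593) or P24 naive replicate 3 (0.0693). Its fall at P10 against P4 was 1.09 ± 0.29 (adjusted p = 0.014), and without P4 naive replicate 2 the adjusted p was 0.0585. Of the 23 voltage-gated pores, 16 were not called between P24 and P4. Among these, Kcna2, the Kv1 partner of Kcna1, averaged 455 ± 108, 359 ± 148 and 453 ± 119 counts at P4, P10 and P24 (SD, n = 4 each), and its change between P24 and P4 was 0.09 ± 0.28 (adjusted p = 0.88). Kcna6 had 106 to 136 counts at P24, against 67.7 to 111 at P4, and had a log2 change of 0.46 ± 0.28 (adjusted p = 0.287).

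**Figure D2:**
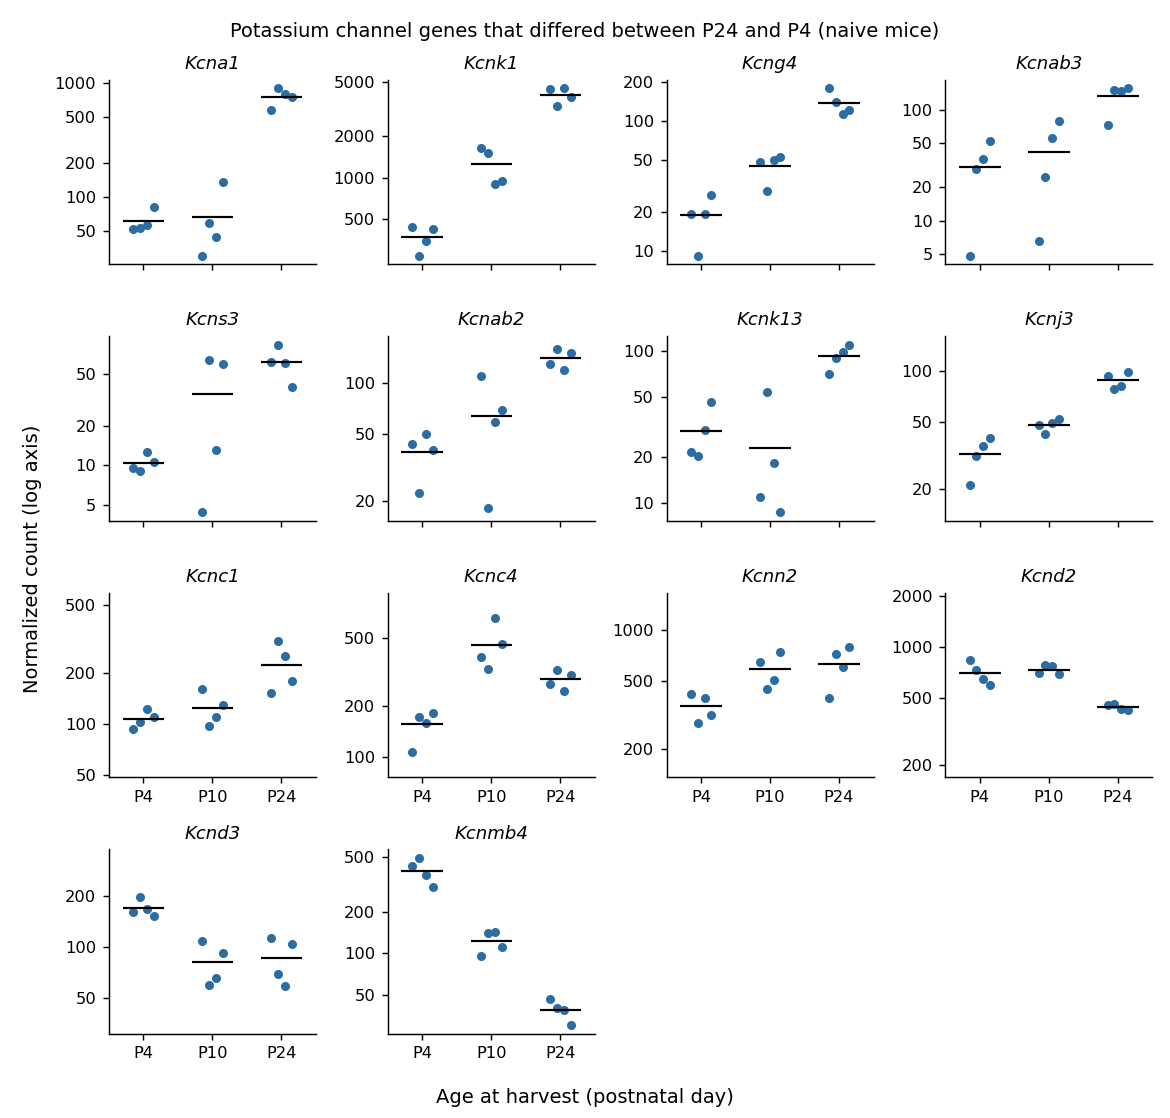
Normalized counts (log axis) of 14 of the 16 potassium channel genes that differed between P24 and P4, by age, in naive mice, with 1 point per library and a bar at the mean of 4 libraries. Kcnk1 and Kcng4 step up at each age and Kcnmb4 steps down at each age, Kcna1 stands apart at P24 alone, and Kcnc4 is highest at P10.

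Modifier pores assemble with Kv2 subunits and change how those open, and 2 of 8 rose between P24 and P4. Kcng4 had 19.5, 9.27, 19.5 and 27.2 counts at P4, 48.4, 29.3, 50.2 and 52.7 at P10, and 179, 139, 113 and 122 at P24, with no overlap between ages. It rose by 2.97 ± 0.37 between P24 and P4 (adjusted p = 2.21e-06). Its rise between P10 and P4, 1.27 ± 0.36 (adjusted p = 0.0212), was lost without P4 naive replicate 2 (adjusted p = 0.09) or 3 (0.0508). Kcns3 had 61.1, 83.4, 60.3 and 39.6 counts at P24, against 9.5, 9.1, 12.7 and 10.6 at P4, and rose by 2.43 ± 0.63 (adjusted p = 0.0087). Its P10 libraries were split, with 4.39 and 13.2 counts in replicates 1 and 3 and 63.6 and 59.5 in replicates 2 and 4. The other 6 modifier genes did not pass between P24 and P4, and each had a negative log2 change, from -0.61 to -0.01.

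Of 13 inward rectifiers tested, 1 rose between P24 and P4 and 0 fell. Kcnj16 encodes Kir5.1, which joins the astrocyte channel Kir4.1. It had 2326, 2201, 1995 and 1626 counts at P4, 1752, 1595, 1560 and 1208 at P10, and 2139, 1509, 1413 and 1586 at P24. All 3 ages overlapped, and the change between P24 and P4 was -0.36 ± 0.16 (adjusted p = 0.119). With quantile normalization that change was -0.46 and passed (adjusted p = 0.0142). Kcnj10, the Kir4.1 gene and no member here, averaged 438 ± 81.5, 1106 ± 335 and 1375 ± 266 counts at the same ages (SD, n = 4 each) and rose by 1.54 ± 0.18 between P24 and P4 (adjusted p = 7.97e-07). The G-protein-gated Kcnj3 had 93.6, 77.7, 81.3 and 97.6 counts at P24, against 21.3, 31.5, 35.9 and 40.1 at P4, with no overlap, and rose by 1.52 ± 0.33 (adjusted p = 0.00158). The opposite-strand gene Gm26794 shares 31.1% of its exon length. Its partner Kcnj9 had 99.9, 83.7, 91.0 and 106 counts at P24, against 4.40, 36.0, 79.0 and 41.6 at P10, and rose by 1.99 ± 0.51 at that step (adjusted p = 0.0121), a call lost without a sex term (adjusted p = 0.0528) or with the sex given in the titles (0.0729). Between P24 and P4 Kcnj9 had a log2 change of 1.45 ± 0.51 (adjusted p = 0.0546), which passed with a pseudocount of 10 (adjusted p = 0.0143), with quantile normalization (0.0183), and without P10 naive replicate 1 (0.00431), 2 (0.0334) or 3 (0.0438). Kcnj8, the pore of the vascular KATP channel, averaged 51.2 ± 22.4, 15.9 ± 14.8 and 20.1 ± 16 counts at P4, P10 and P24 (SD, n = 4 each), and had a log2 change of -1.18 ± 0.86 between P24 and P4 (adjusted p = 0.409).

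Of 7 calcium- and sodium-activated channels, 1 rose between P24 and P4 and 0 fell. Kcnn2, the SK2 channel, had 399, 726, 609 and 794 counts at P24 and 418, 283, 399 and 318 at P4, so that replicate 1 of P24 lay within the P4 range. It rose by 0.86 ± 0.21 (adjusted p = 0.00488), and the call was lost without P24 naive replicate 4 (adjusted p = 0.0533). The rise of Kcnn2 between P10 and P4, 0.72 ± 0.21 (adjusted p = 0.0216), was lost without P4 naive replicate 2 (adjusted p = 0.0764) or 4 (0.0772), or P10 naive replicate 1 (0.0694) or 4 (0.0691). Kcnn3, the SK3 channel, was highest at P10, with 477, 533, 476 and 580 counts, against 312, 441, 329 and 342 at P4. At P24 it had 249, 224, 306 and 228 counts, below every library of both younger ages. Its change was 0.55 ± 0.18 between P10 and P4 (adjusted p = 0.0443) and -1.06 ± 0.18 between P24 and P10 (adjusted p = 0.000282). Kcnt2, a sodium-activated channel, was listed at 0 in P10 naive replicate 3 and at 6.5, 6.35 and 17.3 counts in the other P10 libraries, below 23.0, 42.3, 23.6 and 28.5 counts at P24. Its rise at that step, 2.40 ± 0.73 (adjusted p = 0.0324), was lost in 6 of the 12 fits that left out a library, with adjusted p up to 0.108. Those were without P10 naive replicate 2 (0.0506) or 3 (0.054), or P24 naive replicate 1 (0.0573), 2 (0.095), 3 (0.0599) or 4 (0.108). Its sodium-activated relative Kcnt1 averaged 730 ± 535, 320 ± 117 and 545 ± 78.6 counts at P4, P10 and P24 (SD, n = 4 each) and had a log2 change of -0.12 ± 0.39 between P24 and P4 (adjusted p = 0.88). The BK pore Kcnma1 averaged 73.8 ± 11.1, 57.6 ± 29.0 and 74.1 ± 7.10 counts at those ages, with a log2 change of -0.11 ± 0.36 (adjusted p = 0.879).

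Of 10 accessory subunits tested, 2 rose between P24 and P4 and 1 fell. Kcnmb4, which slows BK gating and makes the channel resist iberiotoxin, had 434, 494, 368 and 301 counts at P4, 95.1, 141, 142 and 111 at P10, and 46.3, 40.0, 38.9 and 29.8 at P24. The ages did not overlap, and the change was -1.70 ± 0.25 between P10 and P4 (adjusted p = 6.40e-05), -1.69 ± 0.26 between P24 and P10 (adjusted p = 7.83e-05) and -3.39 ± 0.26 between P24 and P4 (adjusted p = 8.61e-10). The gene lies at chr10:116417861-116473878 on the minus strand (GRCm38). Exons of the antisense genes Kcnmb4os1 and Kcnmb4os2 on the opposite strand cover 10.7% and 20.8% of its exon length. Kcnmb4os1 fell by 2.71 ± 0.46 and Kcnmb4os2 by 2.52 ± 0.36 over the same ages (adjusted p = 0.000126 and 1.54e-05). The counting is not stated to use strand, so reads of these genes and of Kcnmb4 cannot be told apart where they overlap.

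Of the 3 Kv1 beta subunits 2 rose. Kcnab3 had 73.8, 153, 150 and 158 counts at P24, against 4.85, 29.3, 36.5 and 52.3 at P4, and rose by 2.79 ± 0.53 (adjusted p = 0.000674). Kcnab2 had 129, 157, 119 and 150 counts at P24, against 43.3, 22.3, 49.9 and 39.7 at P4, and rose by 1.96 ± 0.41 (adjusted p = 0.00129). Neither overlapped between those ages. Kcnab1 had a log2 change of 0.88 ± 0.46 (adjusted p = 0.214), which passed without P10 naive replicate 1 (adjusted p = 0.0395). Of the Kv4 partners named KChIPs, Kcnip2 had 4.52, 7.02, 38.6 and 27.3 counts at P10, against 93.1, 46.9, 70.8 and 71.7 at P4, and fell by 2.22 ± 0.53 on the log2 scale (adjusted p = 0.00648). Kcnip3 had 1491, 1068, 1004 and 770 counts at P24, against 1640, 1416, 1851 and 1421 at P10. It fell by 0.59 ± 0.18 (adjusted p = 0.0318), a call lost without P10 naive replicate 1 (adjusted p = 0.0682) or 3 (0.0789), or P24 naive replicate 2 (0.0661), 3 (0.0738) or 4 (0.318). Kcnip1 had a log2 change of -0.46 ± 0.25 between P24 and P4 (adjusted p = 0.242).

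Per kilobase of merged exon, the same 3 genes had the highest means at every age. At P4 the order was Kcnj16 at 518 ± 77.8, Kcnip3 at 332 ± 47.7 and Kcnk1 at 166 ± 34.3 normalized counts per kilobase (SD, n = 4 each). Kcnd2 came next at P4, at 137 ± 20.4, within the spread of Kcnk1. At P10 Kcnk1 stood at 562 ± 173, Kcnip3 at 446 ± 58.5 and Kcnj16 at 389 ± 58.4, and neighbours in that order lay within their spread. At P24 Kcnk1 stood at 1797 ± 238, Kcnj16 at 422 ± 82.9, Kcnip3 at 305 ± 84.7 and Kcna1 at 159 ± 28.3. Kcna1 was the 31st of 69 genes at P4 and the 4th at P24. The median gene held 10.7, 10.5 and 12.6 normalized counts per kilobase at P4, P10 and P24.

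Markers of other cell types moved over the same ages. The 9 oligodendrocyte markers all rose between P24 and P4, with a median log2 change of 6.16, and their summed counts were between 1295 and 2424 at P4, between 12380 and 21770 at P10 and between 80220 and 93190 at P24. The 9 astrocyte markers summed to 64660 to 81720, 82280 to 114700 and 83450 to 127400 counts at those ages, with 4 rising and 3 falling between P24 and P4. Of 6 markers of oligodendrocyte precursors 5 rose, and their sum was 1203 to 1503, 1461 to 2484 and 3563 to 4957 counts. Of 11 neuronal markers, 7 fell and 1 rose between P10 and P4 and 7 rose between P24 and P10, and their sum was 6212 to 8177, 4819 to 6802 and 9529 to 12820 counts. None of the 6 microglial markers passed between P24 and P4, with a median change of 0.61, and their sum was 949.8 to 1121, 585.4 to 717.4 and 790 to 1118 counts. Between P24 and P10, the step at which Kcnk13 lay wholly higher, 2 of the 6 rose and all 6 had a positive change, with a median of 0.71. The 7 mural markers summed to 699.7 to 1118, 938.9 to 1291 and 804.3 to 1230 counts, with 1 rising and 1 falling between P24 and P4. The 5 endothelial markers summed to 286.8 to 394.7, 192.2 to 284.8 and 138.2 to 214.5 counts, and 1 fell. The part of these cell types in the changes of the potassium channel genes was not tested. In sorted nuclei measured in bulk, fewer cells of a type and less RNA per cell cannot be told apart.

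**Figure D3:**
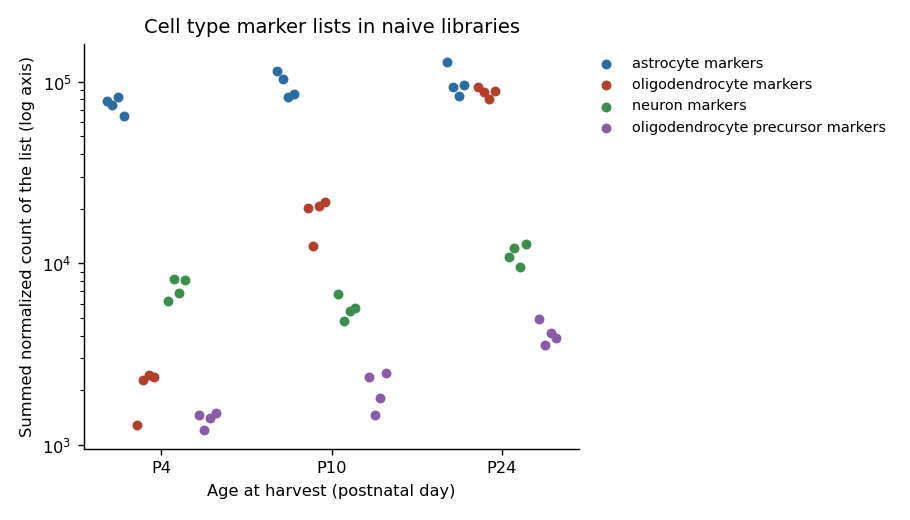
Summed normalized counts (log axis) of the astrocyte, oligodendrocyte, neuron and oligodendrocyte precursor marker lists in naive libraries at P4, P10 and P24, with 1 point per library. The oligodendrocyte sum climbs to 80220 or more at P24, beside astrocyte sums of 83450 or more, while the neuron sum is lowest at P10.

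Some other genes of potassium handling changed with age. Of 29 tested from a list of 31 pump, cotransporter, partner and anchor genes, 8 rose and 3 fell between P24 and P4, against 10.8% and 7.33% of all genes, and 18 were not called. After incision limma called 0 of them at any age, against 0.0281% of all genes at P4 and 0% at P10 and P24. At an unadjusted p under 0.05 there were 0 of 27 at P4, 0 of 25 at P10 and 4 of 29 at P24, against 8.01%, 4.66% and 8.11% of all genes. The glial sodium pump subunit Atp1b2 rose by 1.61 ± 0.18 (adjusted p = 1.61e-06), and averaged 17600 ± 2641, 30030 ± 8423 and 56170 ± 12610 counts at P4, P10 and P24 (SD, n = 4 each). The pump regulator Fxyd1 rose by 2.02 ± 0.17 and Fxyd6 fell by 1.75 ± 0.17 (adjusted p = 3.59e-09 and 3.51e-08). The cotransporter Slc12a2 (NKCC1) rose by 2.13 ± 0.27 (adjusted p = 3.80e-06). Dpp6, a partner of Kv4 pores, fell by 0.79 ± 0.18 (adjusted p = 0.00313).

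After incision no potassium channel gene passed the adjusted threshold at any age with limma. At P4, 0 of 67 genes were called, against 0.0281% of all 14243 genes. At P10, 0 of 61 were called, against 0% of all 13699 genes, and at P24, 0 of 72, against 0% of all 15246. At an unadjusted p under 0.05 there were 3 genes at P4, 6 at P10 and 7 at P24, while 8.01%, 4.66% and 8.11% of all genes passed. The median log2 change over the genes was 0.08 at each age, beside -0.02, -0.01 and -0.02 for all genes. The 4 incision libraries lay wholly above or below the 4 naive ones for 4 genes at P4, 2 at P10 and 3 at P24, against 5.9%, 2.48% and 4.96% of all genes.

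**Figure D4:**
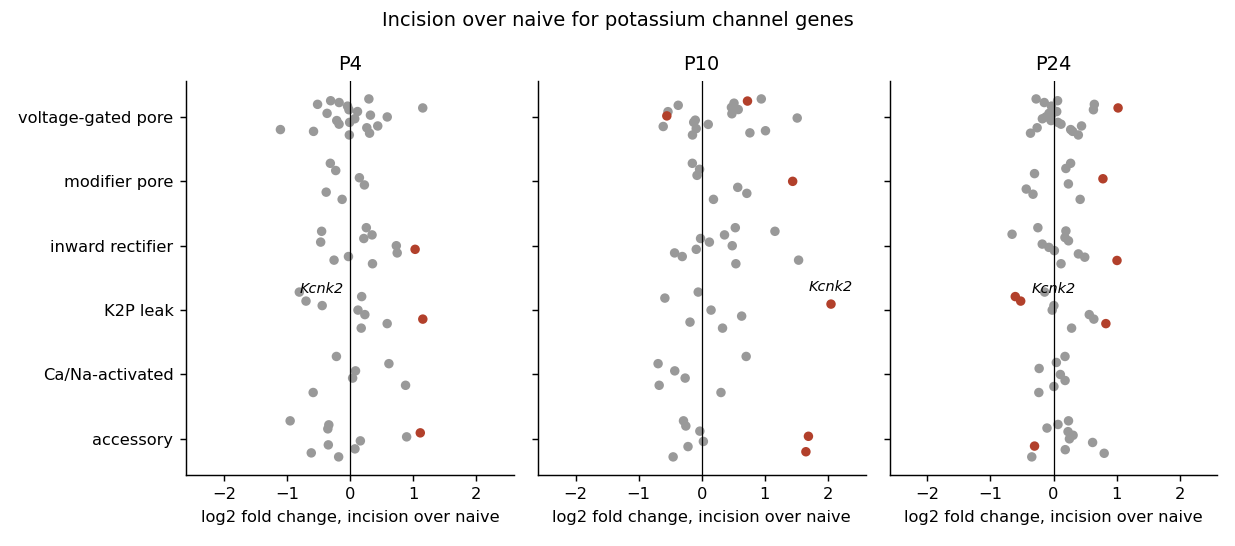
Log2 fold change of normalized counts, incision over naive, for potassium channel genes at P4 (63 shown), P10 (57 shown) and P24 (68 shown), in rows by role, with 1 point per gene. Red points have an unadjusted p under 0.05 in limma, none passes after adjustment, and Kcnk2 at P10 lies farthest from 0.

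Kcnk2, the mechanosensitive leak channel TREK-1, had the lowest unadjusted p-value among these genes. At P10 it had 107, 140, 157 and 108 normalized counts in incision libraries, against 22.3, 59.0, 25.5 and 22.8 in naive libraries. With groups by the characteristics fields, every incision library stood above every naive one, and replicate 2 was the highest of the naive libraries. By its title naive replicate 4, at 22.8 counts, is an incision library, and the groups would then overlap. Incision replicate 4, at 108 counts, is a P24 naive library by its title. Its oligodendrocyte markers summed to 24814 counts, within the 12160 to 26710 of the P10 incision libraries. The P24 naive libraries, normalized separately, held 92690 to 106300. The log2 change of Kcnk2 at P10 was 2.05 ± 0.44 (SE, 95% interval 1.15 to 2.95), which limma did not call over all genes (adjusted p = 0.67). The authors' deposited table gives Kcnk2 a log2 fold change of 2.01 and an adjusted p of 0.00575 at P10, and Kcnk2 is 1 of the 2 genes that it calls there and the 1 potassium channel gene that it calls at any age after incision. At P4 Kcnk2 had 29.5, 48.3, 46.4 and 63.4 counts after incision, against 36.3, 64.7, 58.9 and 70.1 in naive mice. At P24 it had 66.4, 89.8, 83.1 and 64.8 counts after incision, against 93.5, 83.3, 52.5 and 77.7 in naive mice. Both ages overlapped, with changes of -0.44 (95% interval -1.29 to 0.41) and 0.01 (-0.53 to 0.54).

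**Figure D5:**
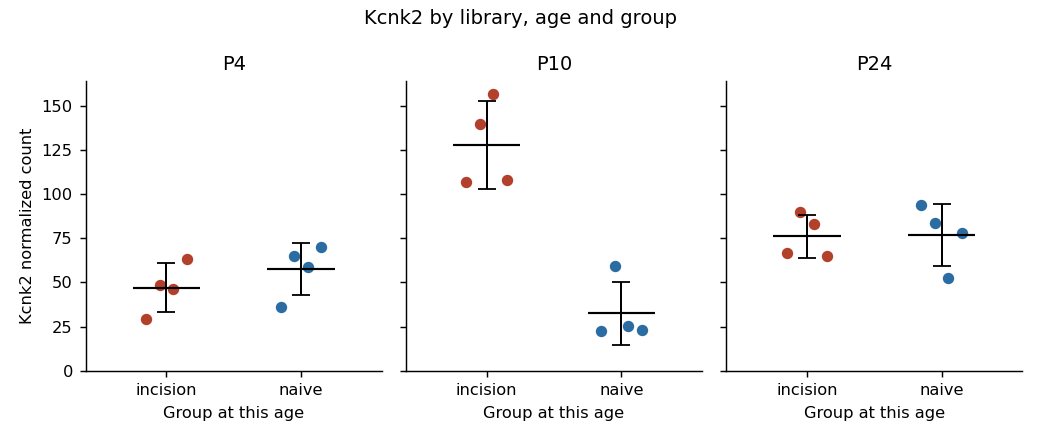
Kcnk2 normalized counts in incision (left) and naive (right) libraries at P4, P10 and P24, with 1 point per library, a bar at the mean and the SD of 4 libraries. At P10 the incision libraries run from 107 to 157 and the naive ones from 22.3 to 59.0, while the groups overlap at P4 and P24. Groups follow the characteristics fields. By their titles P10 naive replicate 4 is an incision library and P10 incision replicate 4 a P24 naive one.

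The size of the incision change was compared between ages, each taken within its own table. All ages shared a limma fit with a common sex term, so these differences need not equal those between the separate fits. The change of Kcnk2 at P10 exceeded that at P4 by 2.37 ± 0.50 on the log2 scale (limma, adjusted p = 0.0255). It was the 1 gene called of 58 potassium channel genes, against 0.242% of all 13200 genes. The change at P24 minus that at P10 was -2.07 ± 0.50 for Kcnk2 (limma, adjusted p = 1.00), and 0 of 58 genes were called, against 0% of all genes. The change at P24 minus that at P4 also gave 0 of 58 calls, against 0.0152% of all genes. At an unadjusted p under 0.05, limma gave 10 of 58 genes for P10 minus P4, 2 for P24 minus P10 and 1 for P24 minus P4, against 13%, 3.64% and 7.47% of all genes. The call at P10 minus P4 was lost without P4 naive replicate 2 (adjusted p = 0.0729), 3 (0.0696) or 4 (0.0645), P4 incision replicate 1 (0.0539), P10 naive replicate 1 (0.0589) or 3 (0.0542), or P10 incision replicate 3 (0.0548) or 4 (0.0641). With groups taken from the titles the difference for Kcnk2 was 1.67 (adjusted p = 0.293), and without the 2 libraries in dispute it was 2.35 (adjusted p = 0.0904).

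Markers of other cells at P10 were summed beside Kcnk2. Neuronal markers summed to 4571 to 6123 counts after incision, against 4224 to 5863 in naive mice, and 10 of 11 had a positive change. Oligodendrocyte markers summed to 12160 to 26710 after incision, against 10630 to 18670 in naive mice, and 8 of 9 had a positive change. Astrocyte markers summed to 72800 to 90640 after incision, against 71820 to 98220, and 4 of 9 had a positive change. Oligodendrocyte precursor markers summed to 1411 to 2303 after incision, against 1258 to 2126, and 6 of 6 had a positive change. Of all 13699 genes, 6752 had a positive change. No gene of these marker lists was called. The sums of the groups overlapped in each of these lists. The mean log2 value of the 11 neuronal markers did not overlap, at 8.18 to 8.42 after incision, against 7.68 to 8.17 in naive mice. Those of the oligodendrocyte, precursor and astrocyte markers did overlap. The part of these cells in the Kcnk2 values was not tested. In naive mice across ages Kcnk2 averaged 68.1 ± 17.7, 37.4 ± 20.3 and 66.6 ± 15.4 counts at P4, P10 and P24 (SD, n = 4 each), and no pair of ages passed (adjusted p = 0.107, 0.137 and 0.969 for P10 against P4, P24 against P10 and P24 against P4). The P10 naive libraries of this comparison and of the incision comparison are the same mice. Kcnk2 lies at chr1:189207930-189402273 on the minus strand (GRCm38), and exons of the antisense gene A430027H14Rik cover 12.2% of the Kcnk2 exon length on the opposite strand.

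Another 4 genes stood higher after incision at P10 at an unadjusted p under 0.05, and 1 stood lower, none of them called. Kcnip2 had 41.9, 34.4, 69.9 and 28.3 counts after incision, against 3.85, 6.08, 33.5 and 23.5 in naive mice, a change of 1.69 ± 0.58 (limma, adjusted p = 0.968). Kcna2 had 359, 514, 527 and 505 counts after incision, against 136, 391, 293 and 418 in naive mice, a change of 0.73 ± 0.28 (adjusted p = 0.968). For Kcnmb2, a BK beta subunit that gives fast inactivation, and Kcns1, a Kv2 modifier, the log2 change was 1.65 ± 0.65 and 1.44 ± 0.64 (adjusted p = 0.968 each). The groups overlapped for all 4 genes. Kcnc4 had 221, 341, 236 and 256 counts after incision, against 331, 286, 569 and 395 in naive mice, a change of -0.55 ± 0.25 (adjusted p = 0.968). Kcnj13, an inward rectifier, was the other gene without overlap at P10, with 21.2, 36.9, 25.9 and 22.9 counts after incision, against 5.70, 11.1, 13.7 and 17.1 in naive mice. It was named after its values were seen, and the gene Gigyf2 on the opposite strand covers 49.1% of its exon length.

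At P4, a day after surgery, the genes with the lowest p-values were low in level. Kcnj3 had 38.2, 85.8, 109 and 44.5 counts after incision, against 18.2, 26.8, 30.6 and 34.2 in naive mice, with no overlap and a change of 1.03 ± 0.43 (limma, adjusted p = 0.57). The log2 change was 1.16 ± 0.49 for Kcnk5, an alkali-sensitive leak channel, and 1.12 ± 0.52 for Kcne1, a KCNQ1 partner (adjusted p = 0.575 and 0.623). For Kcna7 and the calcium-activated Kcnn4 it was 1.15 ± 0.55 and 0.88 ± 0.45 (adjusted p = 0.623 and 0.661), with overlap. Kcnab1 had 34.6, 9.60, 32.8 and 17.4 counts after incision, against 38.1, 49.2, 50.5 and 40.4 in naive mice, with no overlap and a change of -0.95 ± 0.49 (adjusted p = 0.658). Kcnj2 and Kcnk6, named after their values were seen, were the other genes without overlap, both higher after incision. The 7 mural markers summed to 997.8 to 1421 counts after incision at P4, against 579 to 929.9 in naive mice, without overlap, and 6 of them had a positive change. The 6 markers of oligodendrocyte precursors summed to 1440 to 1846 counts after incision, against 996.4 to 1235 in naive mice, also without overlap, and 5 had a positive change. The mean log2 value of the precursor markers did overlap, at 6.93 to 7.55 after incision, against 6.92 to 7.22 in naive mice. That of the mural markers did not overlap. Cspg4 is in both lists. No gene of either list was called, and the sums of the astrocyte, neuron, oligodendrocyte, microglia and endothelial lists overlapped. The part of these cells in the P4 values was not tested.

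The spread of abundant genes at P4 differed from gene to gene. Kcnj16 had 711, 1307, 1323 and 2439 counts after incision, against 1987, 1872, 1693 and 1386 in naive mice, a change of -0.46 (95% interval -1.10 to 0.17). Kcnk1 had 220, 282, 33.1 and 421 counts after incision, against 371, 229, 293 and 359 in naive mice, a change of -0.80 (95% interval -2.23 to 0.62), with incision replicate 3 far below the rest. Both were spread more widely after incision, while Kcnt1 had an SD of 146 counts after incision, against 446 in naive mice, and Kcnmb4 one of 47.0, against 69.6 (n = 4 each). Kcnh5, Kcnip4 and Kcnt1 had log2 changes of -1.10 ± 0.65, -0.61 ± 0.48 and -0.58 ± 0.43, none called. The median SD of log2 values over the genes at P4 was 0.585 after incision and 0.375 in naive mice, beside 0.537 and 0.306 for all genes.

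At P24, 4 genes were higher and 3 lower at an unadjusted p under 0.05, none called. Kcns1 had 55.5, 73.2, 74.4 and 61.5 counts after incision, against 25.8, 46.6, 39.0 and 39.9 in naive mice, with no overlap and a change of 0.78 ± 0.31 (limma, adjusted p = 0.533). The log2 change was 0.83 ± 0.32 for Kcnk6, a TWIK relative, 1.02 ± 0.44 for Kcna7 and 1.01 ± 0.44 for Kcnj8 (adjusted p = 0.53, 0.578 and 0.578), each with overlapping groups. Kcnmb2 had a log2 change of 0.80 ± 0.41 (adjusted p = 0.625). Kcnj6, a G-protein-gated rectifier, was higher and Kcnj13 lower in every incision library, and both were named after their values were seen.

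Of the genes named above as rising between P24 and P4, most had a negative log2 change after incision at P24, and none was called. The P24 naive libraries are the same mice in the age and incision comparisons. Kcna1 had 655, 730, 703 and 780 counts after incision, against 663, 1031, 934 and 852 in naive mice, a change of -0.28 (95% interval -0.56 to 0.01). Kcnk13 had 65.1, 91.4, 78.5 and 66.5 counts after incision, against 82.2, 104, 116 and 127 in naive mice, a change of -0.52 ± 0.25 (limma, adjusted p = 0.604). For Kcnk1 the log2 change was -0.14 (95% interval -0.41 to 0.13). For Kcnab2, Kcnj3 and Kcnc1 it was 0.07 (-0.33 to 0.47), 0.01 (-0.46 to 0.48) and 0.05 (-0.35 to 0.46). The authors' deposited table gives log2 fold changes of -0.31 ± 0.21 (SE) for Kcng4, -0.45 ± 0.32 for Kcns3 and -0.14 ± 0.25 for Kcnab3. That table gives -0.25 ± 0.17 for Kcnn2 and -0.04 ± 0.16 for Kcnc4, and calls none of these genes. Among genes that had not risen with age, the limma log2 change was -0.61 ± 0.29 for Kcnk10 and -0.30 ± 0.14 for Kcnip3 (adjusted p = 0.6 and 0.588). For Kcnj16 it was -0.18 (95% interval -0.45 to 0.09). All 9 oligodendrocyte markers had a negative change at P24, with a median of -0.37, and summed to 70420 to 84050 counts after incision, against 92690 to 106300 in naive mice, without overlap. All 6 precursor markers were negative too, with sums of 3001 to 3891 after incision, against 4230 to 5896. Of 6 microglial markers 5 were negative, with a median of -0.33. None of these markers was called, and 8159 of all 15246 genes tested had a negative change. The sums of the microglia, astrocyte, neuron, endothelial and mural lists overlapped between the groups. The part of these cells in the values of Kcna1, Kcnk13 and the others was not tested.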

How the data were processed

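Nuclear RNA of sorted GFP-positive nuclei was measured in 24 mice. Per the submitters' processing notes the authors used STAR, Salmon and DESeq2 with mm10, and versions are not given in the sources used here. The deposited signal is normalized counts that are not whole numbers, so depth is unknown, and each table was normalized separately by the authors. Per the file headers the authors tested genes that reached 10 counts in 4 or more samples, and then required normalized expression above 20 and a coefficient of variation below 0.65 in 1 or more groups. The deposited log2 fold changes and the deposited p-values of the authors were copied only where named.

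Values were tested as log2(value + 1) with limma 3.58.1 (R 4.3.3), trended and robust moderation, group and the deposited sheet's sex, on genes with a mean of at least 10, with Benjamini-Hochberg adjustment over all genes. Incision was tested within each age's table, age within the naive table, and differences of incision effects as contrasts of within-table changes. Those contrasts came from a fit of all ages with a common sex term and a common estimate of spread. The fits were checked on simulated data. The members and lists were chosen with earlier results of these data known. Named are the called genes with the largest changes, the 5 lowest p-values per direction after incision, and a set list; a few are not reported here, though they stay in the fits and counts. Of the set list, Kcnq3 and Kcne5 were not analysed here. Gene positions and exon overlaps come from GENCODE vM21 on GRCm38, where 74 of 74 symbols matched and 25 genes shared exon bases with another gene, 23 of them on the opposite strand. Alternatives covered pseudocounts, filters, normalization, sex, group labels, left-out libraries and a replicate block.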

Additional observations from a re-analysis of the deposited data

Results flagged for a closer look

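The change of Kcnk2 after incision was larger at P10 than at P4 by 2.37 on the log2 scale (limma, adjusted p = 0.0255). The P4 groups overlapped, and the P10 change itself was not called. The call on the difference was lost in 8 of the 24 fits that left out a library. It was also lost with groups by the titles (adjusted p = 0.293) and without the 2 disputed libraries (0.0904).

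Single libraries stood apart from the other 3 of their group for 8 values among 143 groups of 4 examined, and chance alone flags about 5% of groups. Kcnk2 in P10 naive replicate 2 had 59 counts in the P10 table, beside 22.3 to 25.5 in the others, and 67.8 in the age table, beside 26.1 to 29.3. Kcne1 had 13.8 counts in P4 naive replicate 2, beside 7.13 to 8.19. Kcnn4 had 54.4 counts in P4 naive replicate 4, beside 24.1 to 28.2. Kcnip4 had 123 counts in P4 naive replicate 1, beside 77.5 to 82.3. In the age table, P4 naive replicate 4 had 82.5 counts for Kcna1, beside 52.4 to 57.3. Kcna2 had 359 counts in P10 incision replicate 1, beside 505 to 527. Kcnab3 had 73.8 counts in P24 naive replicate 1, beside 150 to 158.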

How the results depend on the processing

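Counts of called genes stayed within 1.5 times, except as follows. With genes of a mean of at least 100, 9 genes differed between P24 and P10, 10 between P24 and P4 and 12 across ages, since fewer genes were tested, and 0 in the P10 minus P4 incision effect, where Kcnk2 was not tested. That count was also 0 with groups by the titles and without the 2 disputed libraries, and 0 to 1 when libraries were left out in turn. The authors' adjusted p called 1 gene at P10 after incision. With a replicate block over shared title numbers, 9 genes differed between P24 and P10. That limma fit used only undisputed naive libraries with a shared number. Between P24 and P10 it lost Kcnab3 (adjusted p = 0.0833), Kcnt2 (0.075), Kcnk13 (0.0982), Kcnj9 (0.205) and Kcnip3 (0.105). Between P24 and P4 it lost Kcnk13 (0.0588), Kcnc1 (0.0515), Kcnc4 (0.0612) and Kcnd3 (0.0917), and between P10 and P4 Kcng4 (0.0828). Same-numbered incision and naive libraries of an age did not deviate together (correlations -0.123 to 0.026). This gave no sign that the numbers pair the mice, though so few pairs cannot exclude it.

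The sign turned for a few uncalled values near 0. Between P24 and P4, Kcna2 gave -0.0050 with quantile normalization, -0.0044 without a sex term or with the titles' sex, and -0.41 with the block. Kcnma1 gave 0.012 without a sex term or with the titles' sex and 0.11 with the block. With libraries left out, the P24 against P4 change ran from -0.097 to 0.34 for Kcna2, -0.32 to 0.13 for Kcnk2, -0.37 to 0.24 for Kcnt1 and -0.31 to 0.094 for Kcnip3. After incision at P4 it ran from -0.98 to 0.061 for Kcnt1 and -0.71 to 0.077 for Kcnj16. The cause was not tested. Other calls were lost for Kcnt2 (P24 against P10) with a pseudocount of 0.5 (adjusted p = 0.0504), quantile normalization (0.0613) or limma without trended and robust moderation (0.0787), for Kcnip3 at that step without such moderation (0.137), for Kcnab3 at that step without a sex term (0.0788) or with the titles' sex (0.0827), and for Kcnn2 (P10 against P4) without such moderation (0.0952) or with the titles' groups (0.0691). Of the named calls, 10 of 14 between P24 and P4, 4 of 7 between P10 and P4 and 7 of 9 between P24 and P10 held without each library. The 4 mice per group limit precision, and depth is unknown.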

Other observations

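The authors' deposited table of the age test calls 23 of 69 potassium channel genes, or 33.3%, beside 28.6% of all genes in it. Of these, 22 were also called here and Kcna6 was called there alone, with an adjusted p of 0.0385 in the authors' deposited table. Kcna6 shares 39.6% of its exon length with the antisense gene Gm26673.

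Within naive groups the members were more variable at P10 than at the other ages. In the age table the median SD of log2 values over the 69 genes was 0.375 at P4, 0.617 at P10 and 0.344 at P24, beside 0.315, 0.453 and 0.255 for all genes. After incision the members' median SD was instead highest at P4. It was 0.585 at P4, 0.548 at P10 and 0.338 at P24, beside 0.537, 0.426 and 0.261 for all genes.

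Summed over members, normalized counts in naive mice were between 9899 and 11010 at P4, between 10440 and 10990 at P10 and between 13790 and 14720 at P24, and Kcnk1 averaged 371, 1257 and 4016 of these counts.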
